A study of Mus musculus with 12 samples.

Results

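Interferons are signalling proteins that switch on large sets of genes through receptors on the cell surface, and 39 such genes were followed here in mouse regulatory T (Treg) cells. They were chosen by symbol from the 25189 genes of the deposited count table: 22 genes best known as targets of type I interferon, called type I-like below, and 17 best known as targets of interferon-gamma, called interferon-gamma-like, most of which encode GTPases. Both kinds of interferon can induce many of these genes, so the class names describe textbook use and not the source of a signal in these cells. RNA was sequenced from Treg cells sorted in 2 rounds from the spleens of 4-week-old female mice as CD4+RFP+ or CD4+YFP+ cells, in 12 libraries, 4 for each of 3 genotypes. Cells of the double-deficient group (Foxp3∆EGFPiCreRictor∆/∆) used a disrupted Foxp3 allele that encodes a green reporter with Cre recombinase, and had also lost Rictor, a defining subunit of mTOR complex 2. Foxp3-deficient cells (Foxp3∆EGFPiCre) carried the same Foxp3 allele with Rictor intact. WT cells (Foxp3RFP) carried a working Foxp3 allele marked by a red reporter. The labels name the mice as Foxp3∆EGFPiCre/+Rictor∆/∆R26YFP and Foxp3∆EGFPiCre/RFPR26YFP, females with a second, working Foxp3 allele, so all cells came from animals that also held Foxp3-sufficient Treg cells. All carried R26YFP, a yellow reporter switched on by Cre, and Cre was driven from the Foxp3 locus. By the labels, reporter colour cannot be told apart from genotype, and no strain background is given. The mouse behind each library is not named either, so that p-values cover only the spread between these samples, which may be technical.

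Type I interferons act through the receptor chains IFNAR1 and IFNAR2 and a complex that contains STAT2 and IRF9, which binds the interferon-stimulated response element (ISRE) in promoters. Interferon-gamma acts through IFNGR1 and IFNGR2 on genes with the gamma-activated site (GAS) and induces IRF1, a factor that in turn acts on ISRE-like sequences. The products include antiviral proteins that bind or cut foreign RNA, and 2 families of large GTPases, the guanylate-binding proteins (GBPs) and the immunity-related GTPases (IRGs), which in mice attack the membranes around intracellular bacteria and parasites. In T cells the same pathways raise class I antigen presentation and, through interferon-gamma, shape the T helper 1 program that some Treg cells share.

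Libraries held 15769737 to 26114044 reads assigned to genes. Counts were scaled to library size as CPM, and a gene was called different where its edgeR quasi-likelihood adjusted p, corrected over 13196 genes tested, was under 0.05. Foxp3 was at 102 ± 13.7 CPM in double-deficient, 118 ± 22.8 in Foxp3-deficient and 633 ± 75.8 in WT cells, and Rictor at 141 ± 12.6, 189 ± 31.2 and 148 ± 14.4 CPM in the same order (mean ± SD, n = 4, as for all such values below), where counts over a whole gene need not show the loss of a part of it. Foxp3-deficient replicates 1 and 3 stood apart from the other libraries of their group in a principal component analysis. Reads without a unique alignment made up 31.1 to 33.1% in double-deficient, 23 to 29.5% in Foxp3-deficient and 25.9 to 28.5% in WT libraries. The summed markers of T cells were at 7220 to 8000, 6960 to 8520 and 6920 to 7250 CPM in the 3 groups, and those of Treg cells at 1860 to 2200, 1330 to 1410 and 3780 to 4300 CPM. In RNA from a whole sorted population, fewer cells that express a gene and less RNA per cell cannot be told apart. Values by library are given in the order of the replicate numbers, which are 2, 3, 4 and 5 in double-deficient cells and 1, 3, 4 and 5 in Foxp3-deficient and WT cells.

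Of the 39 genes, 38 had enough reads to be tested. The exception was Gbp6, with 1 read over all libraries. Per kilobase of exonic sequence, Ifi27l2a had the highest mean level among the members in double-deficient cells, at 421 CPM per kb, and in WT cells, at 234. In Foxp3-deficient cells Ifi27l2a was at 188 CPM per kb, below Ifi47 at 205. Next in WT cells came Igtp at 215, Ifi47 at 205, Irf1 at 149, Tap1 at 122 and Tap2 at 116 CPM per kb. The lowest of the tested genes were Ifitm1 at 0.0343, Mx1 at 1.82 and Ifitm3 at 1.99 CPM per kb in WT cells. Igtp, Ifi47, Irf1 and the antigen transport genes were thus read deeply, while the 3 Ifitm genes rested on few reads.

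In both comparisons of double-deficient cells each class held calls in both directions. In every comparison some members of each class were not called. Double-deficient and Foxp3-deficient cells differ by the added loss of Rictor and also in the genotype of the mouse, including its second Foxp3 allele. The loss of Rictor and the host mouse cannot be told apart there. Double-deficient against Foxp3-deficient cells had 4 of 22 type I-like genes higher (Isg20, Bst2, Ifi27l2a and Ifitm1) and 1 lower (Stat2). Of the interferon-gamma-like genes, 7 of 16 were higher (Gbp2, Gbp2b, Gbp3, Gbp8, Ifi47, Igtp and Iigp1) and 3 lower (Nlrc5, Gbp9 and Tap2). Over all genes tested, 13.9% were called higher and 13.3% lower in that comparison. The share of interferon-gamma-like genes called higher was 43.8%, above that of all genes. No share is read for the type I-like genes, since Ifitm1 passed the filter on low counts only through the double-deficient group. The median log2 fold change was 0.21 for type I-like, 0.15 for interferon-gamma-like and -0.02 for all genes.

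In Foxp3-deficient against WT cells, which shows the loss of Foxp3 with Rictor intact, the interferon-gamma-like calls were all downward: none of 16 was higher and 5 were lower (Gbp2, Gbp3, Gbp5, Gbp7 and Iigp1). Among type I-like genes 1 was higher (Ifit2) and 2 were lower (Oas1a and Ifitm2). All genes were called higher in 6.99% and lower in 6.74% of cases. The median log2 fold change was -0.10 for type I-like and -0.15 for interferon-gamma-like genes, against 0.0 for all genes. The interferon-gamma-like values ran from -0.80 to 0.07, so this class lay mostly at or below its WT level.

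Double-deficient against WT cells shows both losses together, again with a difference in the genotype of the mouse. There 4 type I-like genes were higher (Ifit1, Ifit3, Ifi27l2a and Ifitm1) and 2 lower (Stat2 and Oas1a), while 4 interferon-gamma-like genes were higher (Gbp2b, Gbp3, Gbp8 and Ifi47) and 6 lower (Nlrc5, Gbp4, Gbp5, Gbp7, Tap1 and Tap2). All genes were called higher in 15.8% and lower in 16.8% of cases. No share is read for the type I-like genes here either, because Ifitm1 passed the filter on low counts only through the double-deficient group. The medians were 0.05 for type I-like, -0.08 for interferon-gamma-like and -0.03 for all genes. Each pair of these 3 comparisons shares a group of libraries, so their values are set side by side and not counted as separate evidence. In the plot of fold changes the members of 1 family lie on both sides of 0.

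**Figure D1:**
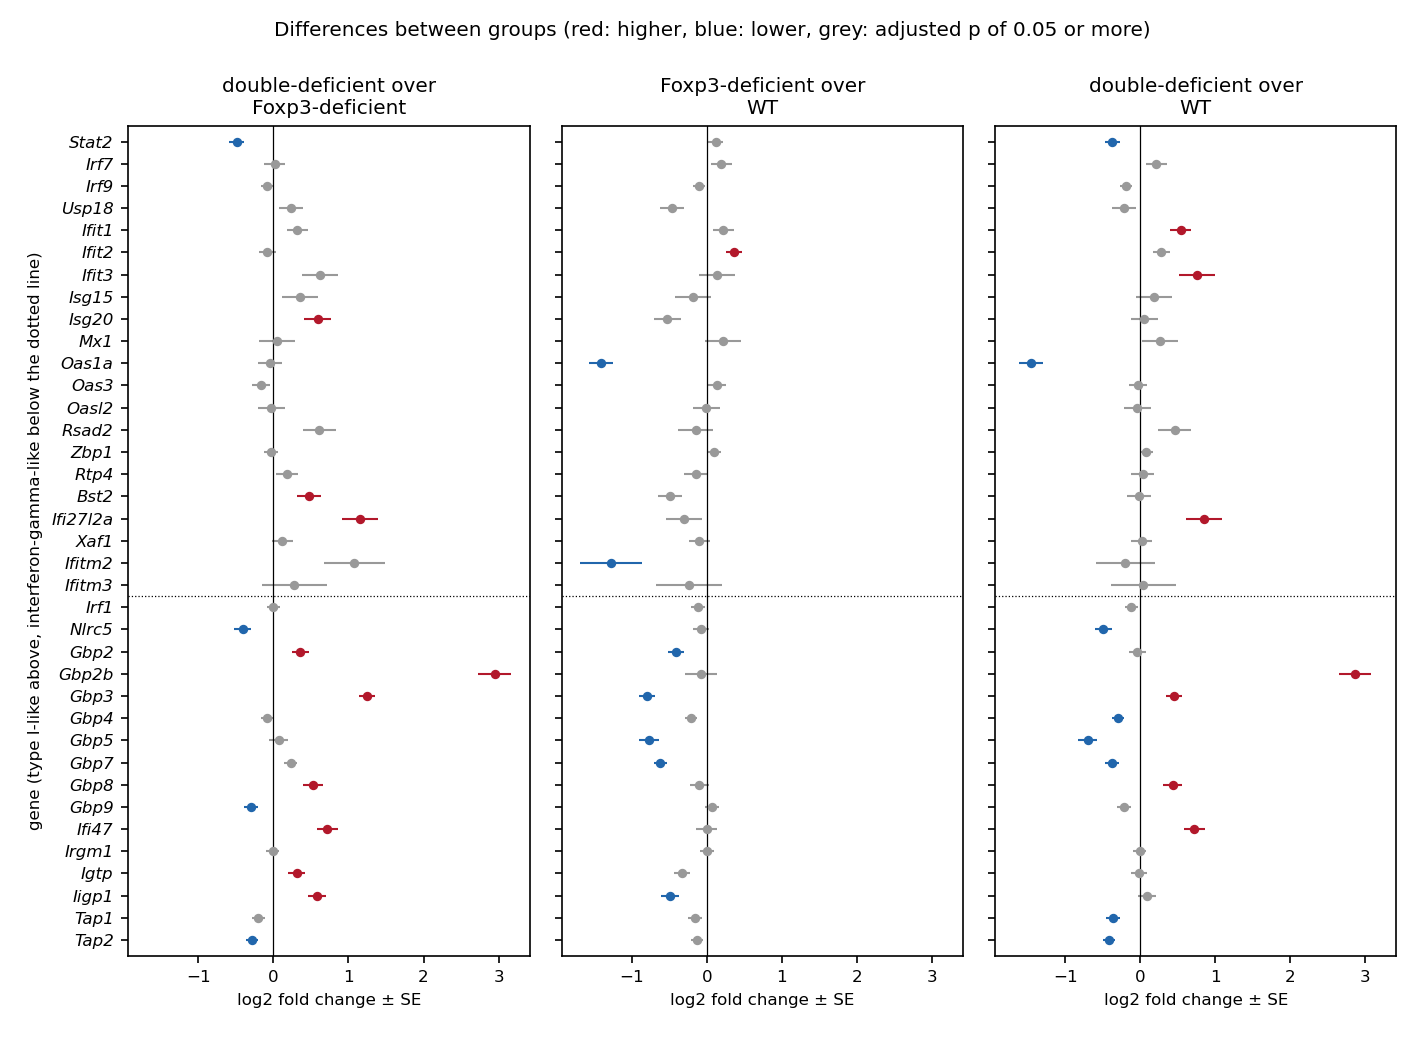
Log2 fold change ± SE of 37 tested members in 3 comparisons on a common axis, with type I-like genes above and interferon-gamma-like genes below the dotted line. Red points were higher and blue points lower at an adjusted p under 0.05, and grey points did not pass. Gbp2b lies at 2.95 and 2.86 in the comparisons of double-deficient cells and at -0.08 between Foxp3-deficient and WT cells. Ifitm1, with 169 reads in double-deficient, 4 in Foxp3-deficient and 3 in WT cells, is not drawn.

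By library, the median type I-like gene lay 0.68 log2 units below its WT mean in Foxp3-deficient replicate 1 and 0.35 above it in double-deficient replicate 3, and between -0.08 and 0.14 in the other 10 libraries. The median interferon-gamma-like gene lay between -0.23 and 0.07 in double-deficient, between -0.35 and -0.20 in Foxp3-deficient and between -0.04 and 0.03 in WT libraries. All 4 Foxp3-deficient libraries were below the 4 WT libraries in that median, and the double-deficient libraries reached from the Foxp3-deficient range to above the WT range. Without Foxp3-deficient replicates 1 and 3, a fit added after seeing the data, the same comparison of double-deficient with Foxp3-deficient cells had 5 type I-like genes higher and 1 lower, and 5 interferon-gamma-like genes higher and 2 lower, beside 1558 genes higher and 1412 lower over all genes.

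**Figure D2:**
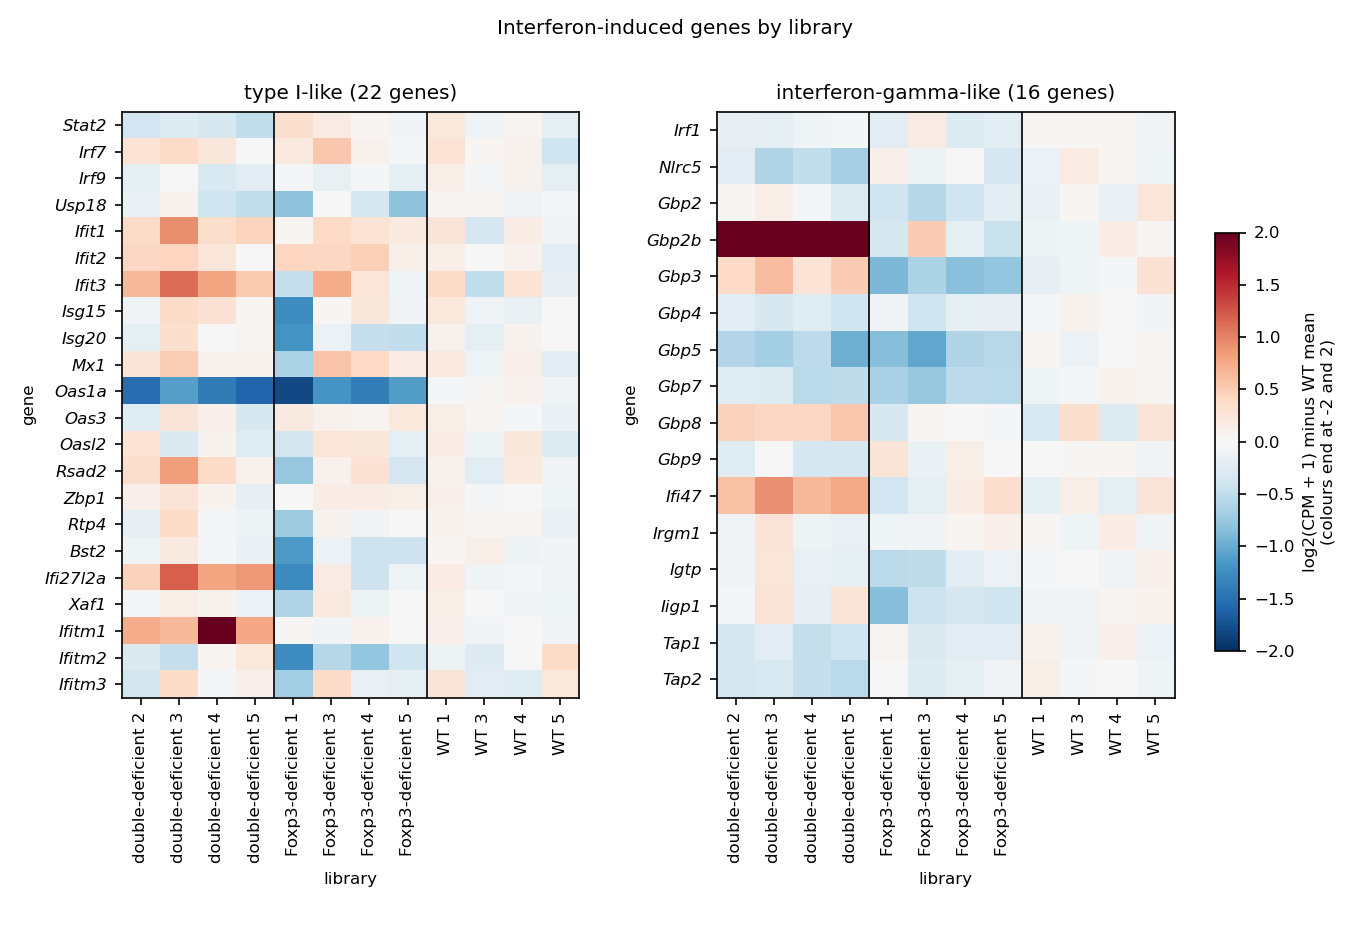
Level of the 38 tested members in each library, as log2(CPM + 1) minus the gene's mean over WT libraries (colour, ending at -2 and 2). Columns run from double-deficient through Foxp3-deficient to WT libraries, and rows are genes. Gbp2b is dark red in all 4 double-deficient libraries, Oas1a is blue in all 8 libraries that lack Foxp3, and Foxp3-deficient replicate 1 is blue for many type I-like genes.

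The guanylate-binding protein genes of the cluster on chromosome 3 held the largest well-measured difference among the members. Gbp2b, which encodes mouse GBP1, was 7.7-fold higher in double-deficient than Foxp3-deficient cells and 7.27-fold higher than in WT cells. Gbp3 was also higher in double-deficient cells than in either other group, whereas Gbp5 and Gbp7, neighbours in the cluster, were lower than WT in both groups that lack Foxp3. The 5 genes lie side by side on the forward strand of chromosome 3 (GRCm38) in the order Gbp5, Gbp7, Gbp3, Gbp2b and Gbp2, from 142493978 to 142638008. Stretches of their RefSeq promoters (GRCm38.p6) that hold matches of the interferon motifs are shown because these neighbours differ in direction. Each is written on the gene's strand with 15 flanking bases where the promoter reaches that far, and capitals mark the matches of the ISRE (GAAANNGAAA) and the GAS (TTCNNNGAA) on either strand.
Gbp5, chr3:142496684-142496905: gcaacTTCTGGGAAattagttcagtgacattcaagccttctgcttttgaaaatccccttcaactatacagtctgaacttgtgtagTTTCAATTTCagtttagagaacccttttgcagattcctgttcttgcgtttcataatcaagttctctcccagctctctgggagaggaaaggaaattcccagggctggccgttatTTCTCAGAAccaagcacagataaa
Gbp7, chr3:142530215-142530307: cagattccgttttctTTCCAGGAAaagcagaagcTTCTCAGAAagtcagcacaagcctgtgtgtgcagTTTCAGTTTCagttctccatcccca
Gbp3, chr3:142559984-142560029: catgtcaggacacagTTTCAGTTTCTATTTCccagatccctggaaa
Gbp2b, chr3:142594695-142594734: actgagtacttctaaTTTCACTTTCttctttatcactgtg
Gbp2, chr3:142620589-142620628: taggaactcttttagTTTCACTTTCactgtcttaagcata
All 5 stretches hold an ISRE match, Gbp3 holds 2 that overlap, and Gbp5 and Gbp7 each hold 2 GAS matches besides. Positions are counted from the RefSeq gene start, which can differ from the GENCODE bounds given above. By those bounds the Gbp5 stretch lies inside the gene. Gbp2 starts at 142620602 there, so its ISRE match also lies inside the gene. The Gbp3 stretch runs a few bases past that gene's start at 142560026. Counted from the RefSeq start, the first ISRE match began at base -165 in Gbp5, -53 in Gbp7, -45 in Gbp3, -137 in Gbp2b and -59 in Gbp2. These letters say nothing on whether a factor was bound in these cells.

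Gbp2b had 157.5, 232, 175 and 126 CPM in double-deficient cells, 18.2, 34, 20.6 and 17.2 CPM in Foxp3-deficient cells and 22.1, 22.3, 26.4 and 24.1 CPM in WT cells. The lowest double-deficient library was far above the highest of the other 8, and Foxp3-deficient and WT libraries overlapped. The log2 fold change was 2.95 ± 0.22 (SE) against Foxp3-deficient (edgeR adjusted p = 1.64e-06) and 2.86 ± 0.21 against WT cells (adjusted p = 3e-07). Between Foxp3-deficient and WT cells it was -0.08 ± 0.21 (adjusted p = 0.854), with a 95% interval of -0.49 to 0.32. Per kilobase, Gbp2b stood at 61.2 CPM in double-deficient cells, above the 55.7 of Gbp2 and the 53.8 of Gbp3, against 7.98 in Foxp3-deficient and 8.41 in WT cells, where it stood below both.

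Gbp3 had 169, 197, 154 and 182.5 CPM in double-deficient cells, 67.9, 81.8, 71.5 and 74.3 CPM in Foxp3-deficient cells and 114, 121, 124 and 156 CPM in WT cells. All Foxp3-deficient libraries were below all others, and the double-deficient and WT ranges met, since WT replicate 5 exceeded double-deficient replicate 4. The log2 fold change was 1.25 ± 0.11 for double-deficient against Foxp3-deficient (adjusted p = 2.94e-06), -0.80 ± 0.11 for Foxp3-deficient against WT (adjusted p = 6.6e-05) and 0.45 ± 0.11 for double-deficient against WT cells (adjusted p = 0.00493). Gbp3 was the only member called in all 3 comparisons. Gbp2, which like Gbp2b restricts vacuoles of intracellular pathogens, had a smaller difference of the same kind, with 140.2 ± 16.4 CPM in double-deficient, 109 ± 10.5 in Foxp3-deficient and 144 ± 19.5 in WT cells. It was higher in double-deficient than Foxp3-deficient cells by 0.36 ± 0.11 (adjusted p = 0.0235) and lower in Foxp3-deficient than in WT cells at -0.41 ± 0.11 (adjusted p = 0.0198). The first call was lost without Foxp3-deficient replicate 4 (0.37, adjusted p = 0.0535) or double-deficient replicate 3 (0.32, 0.0682), and the second without WT replicate 5 (-0.32, 0.077) or Foxp3-deficient replicate 3 (-0.35, 0.0505).

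Gbp5, whose product promotes inflammasome assembly in macrophages, had 33.8, 31.3, 35.1 and 25.3 CPM in double-deficient cells, 27.9, 24.4, 33.1 and 34.5 CPM in Foxp3-deficient cells and 52.6, 47.1, 51.4 and 52.9 CPM in WT cells. Every WT library was above every library of the other groups. The log2 fold change was -0.70 ± 0.13 for double-deficient (adjusted p = 0.000839) and -0.77 ± 0.13 for Foxp3-deficient cells (adjusted p = 0.00058), each against WT. Gbp7 had 281, 278, 227 and 233 CPM in double-deficient cells, 212, 196.5, 230.2 and 228 CPM in Foxp3-deficient cells and 314, 328, 347 and 341 CPM in WT cells. It too was lowest in the groups without Foxp3, at -0.38 ± 0.09 (adjusted p = 0.00354) for double-deficient and -0.62 ± 0.09 (adjusted p = 0.000109) for Foxp3-deficient against WT cells. Between double-deficient and Foxp3-deficient cells the intervals of the difference were -0.19 to 0.32 for Gbp5 and 0.07 to 0.40 for Gbp7, neither of them called (adjusted p = 0.73 and 0.0543).

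**Figure D3:**
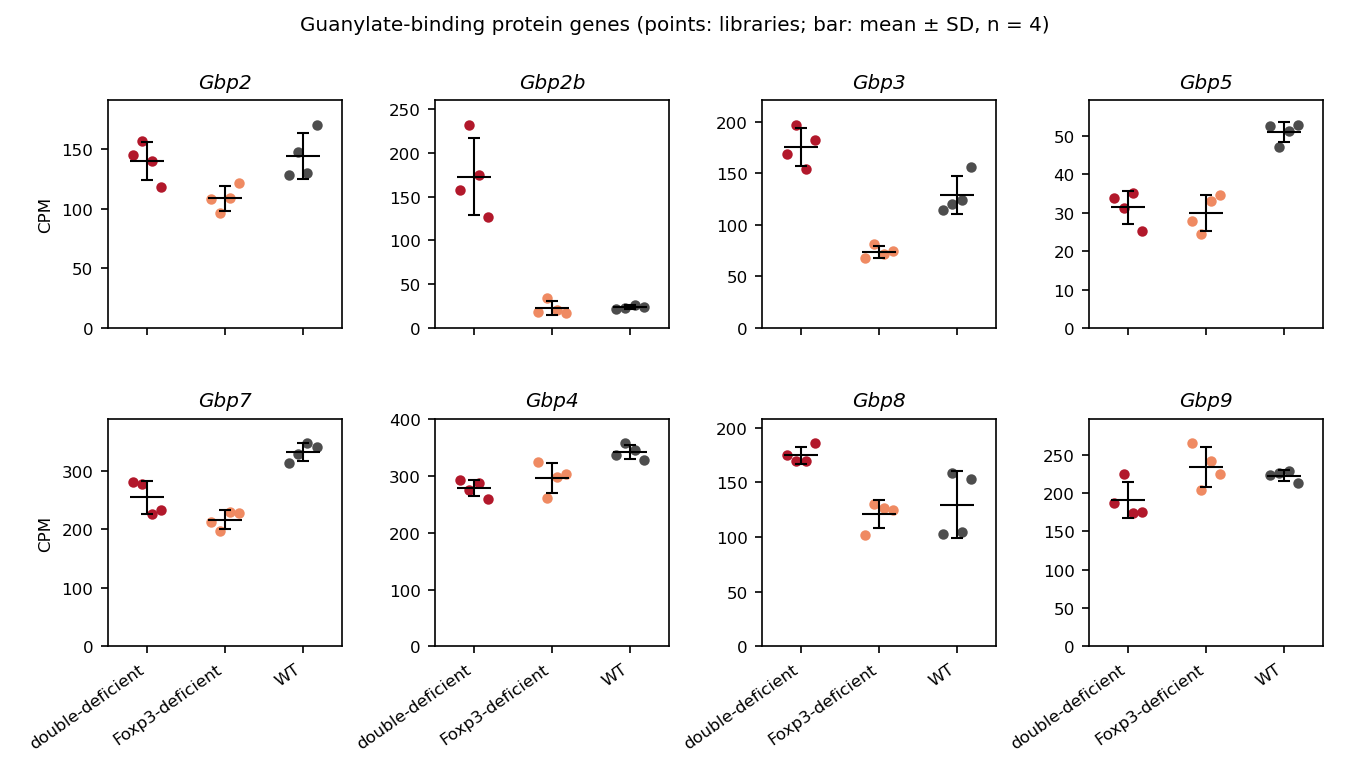
CPM of 8 guanylate-binding protein genes by library (points) with mean ± SD (n = 4), for double-deficient (dark red), Foxp3-deficient (orange) and WT cells (grey); each axis starts at 0. Gbp2b averaged 173 CPM in double-deficient cells against 22.5 in Foxp3-deficient and 23.7 in WT cells, whereas Gbp5 averaged 31.4 and 29.9 CPM in both groups without Foxp3 against 51.0 in WT cells.

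The second cluster of guanylate-binding protein genes, on chromosome 5, showed small and mixed differences. Gbp8 had 175, 169, 169 and 186 CPM in double-deficient cells, 102, 130.2, 126 and 124.5 CPM in Foxp3-deficient cells and 102, 159, 105 and 153 CPM in WT cells. It was higher in double-deficient cells than in Foxp3-deficient cells (0.53 ± 0.13, adjusted p = 0.00993) and than in WT cells (0.43 ± 0.13, adjusted p = 0.0217), and its WT libraries fell into a lower and a higher pair. The call against WT was lost without WT replicate 1 (0.33, adjusted p = 0.081), WT replicate 4 (0.34, 0.0796) or double-deficient replicate 5 (0.40, 0.0589). Gbp4 had 279 ± 14.7 CPM in double-deficient, 297 ± 26.8 in Foxp3-deficient and 343 ± 12.3 in WT cells, and was lower in double-deficient than in WT cells (-0.30 ± 0.08, adjusted p = 0.0083). Gbp9 had 190.5 ± 23.3 CPM in double-deficient, 234 ± 26.2 in Foxp3-deficient and 223 ± 7.04 in WT cells, lower in double-deficient than Foxp3-deficient cells (-0.30 ± 0.09, adjusted p = 0.0314). That call was lost in 5 of 12 fits without 1 library, namely Foxp3-deficient replicates 1 (-0.23, adjusted p = 0.0898) and 4 (-0.28, 0.0779) and double-deficient replicates 2 (-0.29, 0.0609), 4 (-0.25, 0.104) and 5 (-0.25, 0.101).

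Sums over each cluster do not depend on which copy a read was given to. They still lack the reads without a unique alignment, which were set apart in counting and were most frequent in double-deficient libraries. The 5 genes on chromosome 3 together had 775 ± 90.5 CPM in double-deficient, 452 ± 21.7 in Foxp3-deficient and 680.3 ± 47.2 in WT cells. The sum was higher by 0.78 ± 0.09 (log2, adjusted p = 4.18e-05) in double-deficient than Foxp3-deficient cells and lower at -0.59 ± 0.09 (adjusted p = 0.000179) in Foxp3-deficient than in WT cells. Between double-deficient and WT cells it differed by 0.19 ± 0.09 (adjusted p = 0.106), a sum in which higher Gbp2b and Gbp3 stood against lower Gbp5 and Gbp7. The 6 genes on chromosome 5 together had 671 ± 23.6 CPM in double-deficient, 669.8 ± 36.6 in Foxp3-deficient and 719.8 ± 36.0 in WT cells, with none of the 3 comparisons called (adjusted p = 0.982, 0.388 and 0.271).

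Among the immunity-related GTPases, which in mice coat the vacuoles of intracellular parasites, Ifi47 (IRGD) and Iigp1 (IRGA6) differed most and Irgm1 least. Ifi47, on chromosome 11 from 49076587 to 49096974, had 755, 950.1, 788 and 847 CPM in double-deficient cells, 387, 443, 561 and 638 CPM in Foxp3-deficient cells and 438, 547, 447 and 601 CPM in WT cells. All double-deficient libraries were above all others. The log2 fold change was 0.72 ± 0.14 against Foxp3-deficient (adjusted p = 0.00307) and 0.72 ± 0.14 against WT cells (adjusted p = 0.00178), and 0.00 ± 0.14 between Foxp3-deficient and WT cells, with an interval of -0.28 to 0.28. Iigp1 had 103, 128, 95 and 127 CPM in double-deficient cells, 58.4, 79.9, 84 and 80.8 CPM in Foxp3-deficient cells and 103, 102, 110.4 and 112 CPM in WT cells. Foxp3-deficient libraries were below all others, so that Iigp1 was higher in double-deficient than Foxp3-deficient cells (0.58 ± 0.12, adjusted p = 0.00353), lower in Foxp3-deficient than in WT cells (-0.49 ± 0.12, adjusted p = 0.0102), while against WT its interval in double-deficient cells was -0.15 to 0.32.

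Igtp (IRGM3), a regulator of the other GTPases, had 427 ± 60.9 CPM in double-deficient, 344.5 ± 49.5 in Foxp3-deficient and 434 ± 21.9 in WT cells. Its call in double-deficient against Foxp3-deficient cells (0.31 ± 0.11, adjusted p = 0.0453) was lost in 9 of 12 fits without 1 library, each WT library among them, with log2 fold changes of 0.22 to 0.39 over the 12. Irgm1, a regulator of the same kind, had 231 ± 31.6 CPM in double-deficient, 233 ± 13.8 in Foxp3-deficient and 233 ± 17.2 in WT cells. Its 95% intervals were -0.20 to 0.17, -0.18 to 0.18 and -0.19 to 0.17 for double-deficient against Foxp3-deficient, Foxp3-deficient against WT and double-deficient against WT cells.

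The remaining interferon-gamma-like members act in gene control and antigen presentation. Irf1, the transcription factor that carries much of the response to interferon-gamma, had 547 ± 27.1 CPM in double-deficient, 545 ± 79 in Foxp3-deficient and 594 ± 19.2 in WT cells and passed the test in no comparison. Nlrc5, the transactivator of class I antigen presentation genes, had 309, 239.7, 258 and 227 CPM in double-deficient cells, 389.6, 337, 360.2 and 286 CPM in Foxp3-deficient cells and 333, 408, 371 and 342 CPM in WT cells. Against WT it was lower in double-deficient cells (-0.49 ± 0.11, adjusted p = 0.00363), with no overlap between their libraries, and it was also below Foxp3-deficient cells (-0.41 ± 0.11, adjusted p = 0.0145), with overlap. The difference from Foxp3-deficient cells was not called without double-deficient replicate 3 (-0.36, adjusted p = 0.053) or 5 (-0.34, 0.0594). Tap1 and Tap2, the paired subunits of the transporter that carries peptides to class I molecules, had 519.6 ± 37.8 and 328 ± 22.8 CPM in double-deficient, 597 ± 66.3 and 399 ± 30.1 in Foxp3-deficient and 669 ± 50 and 437 ± 26.9 in WT cells. Both were lower in double-deficient than in WT cells, Tap1 at -0.36 ± 0.09 (adjusted p = 0.00621) and Tap2 at -0.41 ± 0.08 (adjusted p = 0.00115). Tap2 was also lower than in Foxp3-deficient cells (-0.28 ± 0.08, adjusted p = 0.0169), a call lost without double-deficient replicate 4 (-0.26, 0.0541) or 5 (-0.24, 0.0643), while Tap1 did not pass there (-0.20 ± 0.09, adjusted p = 0.105).

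Of the 4 type I-like regulators, only Stat2 passed a test. Stat2, the STAT protein particular to type I and type III interferon receptors, had 111, 121, 116 and 103 CPM in double-deficient cells, 181, 164, 149 and 139.9 CPM in Foxp3-deficient cells and 167, 138, 151 and 127 CPM in WT cells. Every double-deficient library was below every other library, with log2 fold changes of -0.49 ± 0.10 against Foxp3-deficient (adjusted p = 0.00346) and -0.37 ± 0.10 against WT cells (adjusted p = 0.0108). Irf9, which joins STAT2 in the same complex, had 310.2 ± 27.9 CPM in double-deficient, 330.3 ± 18.2 in Foxp3-deficient and 354 ± 32.5 in WT cells. Irf7, the factor that amplifies type I interferon production, had 172 ± 19.3 CPM in double-deficient, 171 ± 30.7 in Foxp3-deficient and 149 ± 27.8 in WT cells. Usp18, which removes ISG15 from proteins and restrains the type I receptor, had 104 ± 19.2 CPM in double-deficient, 88.7 ± 25.1 in Foxp3-deficient and 121.5 ± 5.51 in WT cells. For Usp18 the difference between Foxp3-deficient and WT cells was -0.46 ± 0.16 (adjusted p = 0.0839), and without Foxp3-deficient replicate 3 it was -0.64 (adjusted p = 0.00558).

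The antiviral effector with the largest difference was Oas1a, one of the synthetases that make 2-5A, the activator of the RNA-cutting enzyme RNase L. Oas1a had 11.8, 16.1, 13 and 11.3 CPM in double-deficient cells, 9.58, 15.3, 13.1 and 15.9 CPM in Foxp3-deficient cells and 35.3, 36.2, 37.9 and 33.9 CPM in WT cells. Every WT library was far above every library of the other groups, which overlapped each other. Against WT cells the log2 fold change was -1.45 ± 0.16 in double-deficient (adjusted p = 7.79e-06) and -1.41 ± 0.16 in Foxp3-deficient cells (adjusted p = 1.45e-05), with an interval of -0.36 to 0.27 between both groups without Foxp3. Oas3 and Oasl2, of the same family, passed no test: Oas3 averaged 42 ± 8.28 CPM in double-deficient, 47 ± 2.47 in Foxp3-deficient and 43 ± 3.33 in WT cells, and Oasl2 26.1 ± 5.17, 26.8 ± 5.7 and 26.9 ± 4.39 CPM in the same order. Oas1a, on chromosome 5 from 120896256 to 120907521 on the reverse strand, shares 57.6% of its 50-base transcript windows with Oas1g. Summed over 5 Oas1 genes, the level was 34.8 ± 1.72 CPM in double-deficient, 34.8 ± 1.97 in Foxp3-deficient and 62.1 ± 4.99 in WT cells, lower than WT by a log2 fold change of -0.84 ± 0.09 in each group (adjusted p = 9.48e-06 and 1.31e-05).

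The Ifit genes encode proteins that bind foreign RNA through its 5′ end, and Ifit1 and Ifit3 were higher in double-deficient than in WT cells. Promoter stretches with motif matches of the members Oas1a, Ifit1 and Stat2 are shown for comparison, since Oas1a and Ifit1 differed from WT in opposite directions, with capitals as above.
Oas1a, chr5:120907526-120907638, reverse strand: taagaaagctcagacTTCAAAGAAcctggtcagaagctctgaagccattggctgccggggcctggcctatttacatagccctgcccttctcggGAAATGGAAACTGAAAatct
Ifit1, chr19:34640770-34640828: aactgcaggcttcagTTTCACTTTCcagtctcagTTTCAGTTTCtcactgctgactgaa
Stat2, chr10:128270261-128270300: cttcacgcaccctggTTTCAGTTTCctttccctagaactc
Oas1a and Ifit1 each hold 2 ISRE matches, which overlap in Oas1a, and Oas1a holds a GAS match besides. Ifit1 had 123, 179, 120.5 and 129 CPM in double-deficient cells, 96, 124, 114 and 108 CPM in Foxp3-deficient cells and 113, 74.1, 105 and 88.9 CPM in WT cells. All double-deficient libraries were above the WT libraries, and double-deficient replicate 3 was the highest. The log2 fold change against WT was 0.54 ± 0.14 (adjusted p = 0.0103), and against Foxp3-deficient cells 0.32 ± 0.14 (adjusted p = 0.107). Ifit3 had 37.8, 53, 41.8 and 34.6 CPM in double-deficient cells, 17.2, 40.8, 28.5 and 22.7 CPM in Foxp3-deficient cells and 31.5, 16.6, 29 and 21.3 CPM in WT cells. It was higher in double-deficient than in WT cells (0.76 ± 0.24, adjusted p = 0.0267), a call lost without WT replicate 3 (0.62, adjusted p = 0.0808), WT replicate 5 (0.70, 0.0681), double-deficient replicate 3 (0.64, 0.0796) or double-deficient replicate 4 (0.77, 0.0507). Ifit2 had 94.1 ± 12.5 CPM in double-deficient, 99.8 ± 11 in Foxp3-deficient and 77.5 ± 8.24 in WT cells and was called only in Foxp3-deficient against WT cells (0.36 ± 0.11, adjusted p = 0.0432). That call was lost in 8 of 12 fits without 1 library, all 4 WT libraries, Foxp3-deficient replicates 1, 3 and 4 and double-deficient replicate 4 among them, with values of 0.30 to 0.44 over the 12.

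Isg20, an exonuclease that degrades single-stranded RNA, and Bst2 (tetherin), which holds budding viruses at the cell surface, were higher in double-deficient than Foxp3-deficient cells. Isg20 had 38.1, 55.6, 43.5 and 45.9 CPM in double-deficient cells, 18.6, 40.3, 31.8 and 31.1 CPM in Foxp3-deficient cells and 46.9, 38.9, 46.3 and 44.2 CPM in WT cells. It was higher in double-deficient than Foxp3-deficient cells by 0.59 ± 0.18 (adjusted p = 0.026), and differed between Foxp3-deficient and WT cells by -0.53 ± 0.18 (adjusted p = 0.0622). The first call was lost without Foxp3-deficient replicate 4 (0.61, adjusted p = 0.0503), double-deficient replicate 3 (0.49, 0.0774) or double-deficient replicate 5 (0.60, 0.0542). Bst2 had 53.8, 64.6, 55.8 and 52.3 CPM in double-deficient cells, 25.2, 52.6, 42.6 and 42.4 CPM in Foxp3-deficient cells and 59, 61.9, 53 and 55.2 CPM in WT cells. Its call in double-deficient against Foxp3-deficient cells (0.48 ± 0.16, adjusted p = 0.0397) was lost in 10 of 12 fits without 1 library, all but those without Foxp3-deficient replicates 3 and 5, with values among the lost calls of 0.31 (without Foxp3-deficient replicate 1) to 0.52 (without double-deficient replicate 5). Foxp3-deficient replicate 1 was the lowest library for both genes.

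Ifi27l2a (ISG12), a small membrane protein gene on chromosome 12 from 103442167 to 103443680, was higher in double-deficient cells than in both other groups. It had 149, 247, 187 and 197 CPM in double-deficient cells, 44.2, 122, 81.2 and 102 CPM in Foxp3-deficient cells and 120.4, 103, 106 and 103 CPM in WT cells. All double-deficient libraries were above all others, with log2 fold changes of 1.16 ± 0.24 against Foxp3-deficient (adjusted p = 0.00539) and 0.85 ± 0.24 against WT cells (adjusted p = 0.0171). Summed with its 2 listed relatives, the difference was 0.77 ± 0.17 (adjusted p = 0.00656) against Foxp3-deficient and 0.35 ± 0.17 (adjusted p = 0.135) against WT cells.

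**Figure D4:**
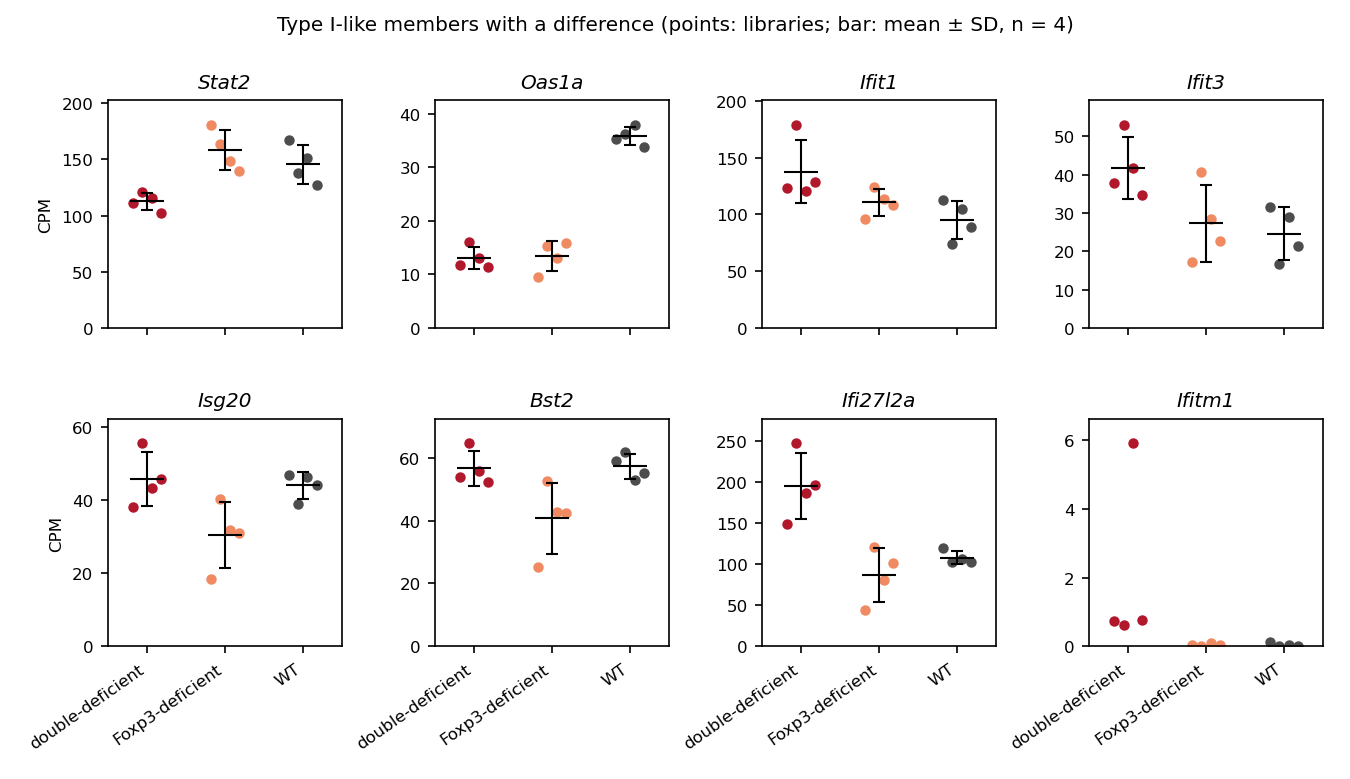
CPM of the 8 type I-like genes called in a comparison of double-deficient cells, by library (points) with mean ± SD (n = 4; none drawn for Ifitm1), for double-deficient (dark red), Foxp3-deficient (orange) and WT cells (grey); each axis starts at 0. Oas1a averaged 13.1 CPM in double-deficient and 13.5 in Foxp3-deficient cells against 35.8 in WT cells, while Ifi27l2a averaged 195 CPM in double-deficient cells against 87.3 in Foxp3-deficient and 108 in WT cells.

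The remaining type I-like genes outside the Ifitm family passed no test. Isg15, a ubiquitin-like modifier, had 18.5 ± 2.78 CPM in double-deficient, 14.4 ± 5.59 in Foxp3-deficient and 16.4 ± 1.89 in WT cells. Mx1, a dynamin-like GTPase that blocks influenza viruses, had 8.24 ± 1.28 CPM in double-deficient, 7.96 ± 2.86 in Foxp3-deficient and 6.9 ± 1.02 in WT cells. Rsad2 (viperin), which makes a chain-terminating nucleotide, had 17 ± 4.01 CPM in double-deficient, 11.1 ± 3.71 in Foxp3-deficient and 12.3 ± 1.68 in WT cells, and its difference of 0.61 ± 0.22 between double-deficient and Foxp3-deficient cells had an adjusted p of 0.0543. Zbp1, a sensor of Z-form nucleic acids, had 193.5 ± 23.1 CPM in double-deficient, 197 ± 10 in Foxp3-deficient and 184 ± 10.1 in WT cells. Its intervals were narrow, at -0.20 to 0.14 for double-deficient against Foxp3-deficient and -0.09 to 0.25 for double-deficient against WT cells. Rtp4 and Xaf1 averaged 74.6 ± 13.4 and 41.1 ± 3.08 CPM in double-deficient, 65.8 ± 14.8 and 38 ± 8.59 in Foxp3-deficient and 73.3 ± 4.93 and 40.7 ± 2.57 in WT cells.

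The Ifitm genes encode small membrane proteins that keep viruses from fusing with endosomes, and all 3 members were near the limit of detection. Ifitm1 had 169 reads in double-deficient cells, most of them in replicate 4, against 4 in Foxp3-deficient and 3 in WT cells. It passed the filter on low counts only through the double-deficient group, so that a difference was bound to appear. The ratio of scaled reads was 39.8 against Foxp3-deficient (95% counting interval 15.2 to 148) and 58.3 against WT cells (19.6 to 285). Without double-deficient replicate 4, 43 reads remained and the ratios were 13.7 (4.97 to 52.5) and 20 (6.41 to 101). The other 3 double-deficient libraries were at 0.631 to 0.766 CPM, and the other groups reached 0.103 CPM in Foxp3-deficient and 0.114 CPM in WT cells. Because of the filter, these ratios and levels only describe the reads and are not taken as evidence of a difference. Ifitm2 had 1.82 ± 0.606 CPM in double-deficient, 0.847 ± 0.44 in Foxp3-deficient and 2.07 ± 0.591 in WT cells, and its call in Foxp3-deficient against WT cells (-1.28 ± 0.41, adjusted p = 0.0499) was lost in 10 of 12 fits without 1 library, with values of -1.59 to -0.99. Ifitm3 had 1.38 ± 0.494 CPM in double-deficient, 1.15 ± 0.657 in Foxp3-deficient and 1.35 ± 0.436 in WT cells and passed no test.

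Reads that fit more than 1 gene could be lost or misplaced in counting, and the sequence shared with other genes was therefore measured as the share of a gene's 50-base transcript windows that also occur in the transcripts of another gene (GENCODE M21, GRCm38). Gbp6 shares 70.7%, mostly with Gm43302 and Gbp10, so reads from it may not have been counted. Oas1a shares 57.6% with Oas1g, Ifit3 51.2% with Ifit3b, and Ifitm2 48.5%, of which 36.1% with the overlapping gene model Gm45717. Gbp8 shares 18.1%, Gbp7 12.7%, Igtp 11.8% with Irgm2, Rtp4 11.6%, Tap2 11.6% and Ifitm3 10.02%. Gbp2b shares 1.84% and Gbp3 3.75%, so the largest differences of the chromosome 3 cluster rested on sequence that is nearly all their own. Values of the genes above 10% are uncertain as to reads that fit another gene. For Rtp4, Tap2 and Gbp7 the shared windows lay mostly in a gene model that overlaps them (Gm45338, Gm15821 and Gm43802), and not in a copy elsewhere. Ifit1 summed with 2 relatives was higher by 0.60 ± 0.12 (adjusted p = 0.00234) in double-deficient than Foxp3-deficient cells, where Ifit1 alone was not called. No test is read for the 3 Ifitm genes together, since Ifitm1 passed the filter on low counts only through the double-deficient group. Ifit3 summed with Ifit3b was higher in double-deficient than in WT cells by 0.72 ± 0.24 (adjusted p = 0.0341), and Igtp summed with Irgm2 was lower in Foxp3-deficient than in WT cells at -0.35 ± 0.11 (adjusted p = 0.0377) and not called in double-deficient against Foxp3-deficient cells (0.25 ± 0.11, adjusted p = 0.0959).

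**Figure D5:**
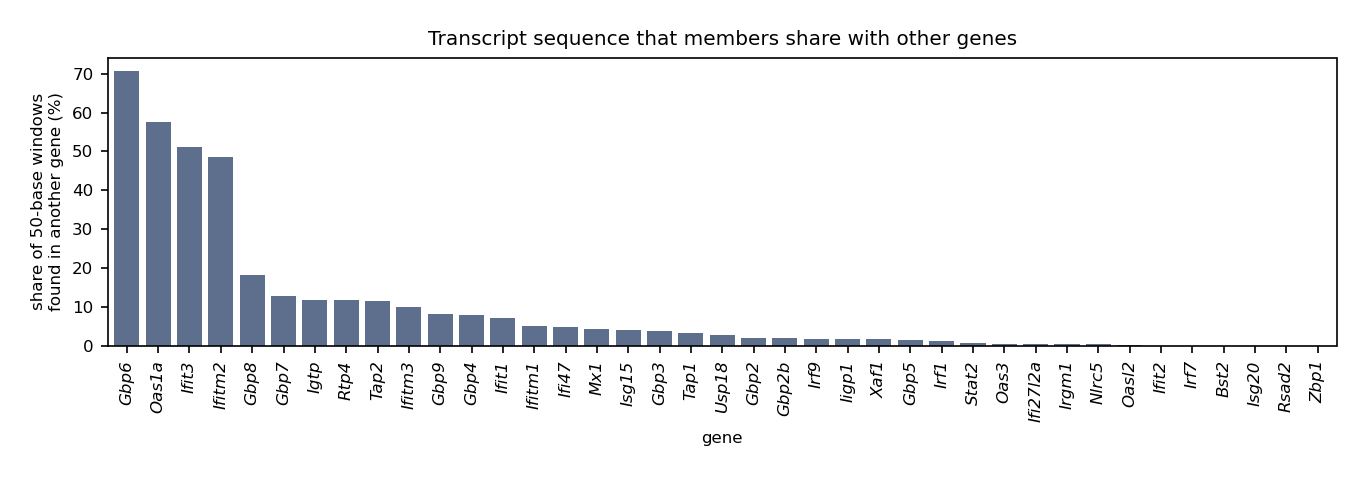
Share of each member's 50-base transcript windows that also occur in another gene, in percent, in falling order. Gbp6, Oas1a, Ifit3 and Ifitm2 stand at 70.7, 57.6, 51.2 and 48.5%, and the remaining genes at or below 18.1%.

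RefSeq promoters, 250 bases before to 50 after the start, were matched for 27 of the 39 members. An ISRE match on either strand stood in 17 of these 27 genes (63.0%), against 3.99% of 27025 genes with a promoter in the table, and a GAS match in 9 (33.3%), against 9.55%. Counted by class, the ISRE letters stood in 10 of 17 type I-like and 7 of 10 interferon-gamma-like genes, and the GAS letters in 5 and 4 of them. Gbp2b and Gbp3, higher in double-deficient than in WT cells, and Gbp5 and Gbp7, lower there, all hold the ISRE letters, while the GAS letters stand in Gbp5 and Gbp7 and not in Gbp2b and Gbp3. These are matches of letters and not measured binding.

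Upstream of the members, the message for interferon-gamma itself was higher in double-deficient than in WT cells. Ifng averaged 60.5 ± 18 CPM in double-deficient, 31.2 ± 30.5 in Foxp3-deficient and 11.9 ± 4.56 in WT cells, with a range of 3.25 to 72.0 CPM among Foxp3-deficient libraries. It was called in double-deficient against WT cells (2.35 ± 0.73 on the log2 scale, adjusted p = 0.033), and not against Foxp3-deficient cells (0.95 ± 0.69, adjusted p = 0.335) or between Foxp3-deficient and WT cells (1.40 ± 0.72, adjusted p = 0.262). Of 11 interferon genes listed, 2 had a row in the table analysed here, and Ifng alone passed the filter on low counts. Nkg7, a gene of cytotoxic cells, was at 31.9 to 66.0 CPM in double-deficient, 8.17 to 107 in Foxp3-deficient and 18.8 to 30.1 in WT libraries. Other markers of NK and CD8 T cells did not share 1 direction in double-deficient against WT libraries. Gzmb was at 1.83 to 6.18 against 4.34 to 10.2 CPM and Klrb1c at 0.149 to 1.58 against 2.06 to 4.25. Prf1 was at 13.2 to 16.1 against 12.8 to 15.7 CPM and Cd8b1 at 24.2 to 26.6 against 17.1 to 21.1. The part of such cells in the Ifng values was not tested. Ifngr1, the binding chain of the interferon-gamma receptor, averaged 338 ± 19.4 CPM in double-deficient, 285 ± 28.7 in Foxp3-deficient and 406 ± 6.26 in WT cells. It was higher in double-deficient than Foxp3-deficient cells (0.25 ± 0.08, adjusted p = 0.0286) and lower in Foxp3-deficient than in WT cells (-0.51 ± 0.08, adjusted p = 0.000248). Jak2, a kinase of the interferon-gamma receptor, was higher than WT in both groups, at 0.26 ± 0.08 in double-deficient (adjusted p = 0.0197) and 0.37 ± 0.08 in Foxp3-deficient cells (adjusted p = 0.00352).

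Of 10 negative regulators, 1 was higher and 2 were lower in double-deficient than in WT cells, where 15.8% of all genes were higher and 16.8% lower. Socs1, which blocks the kinases of both receptors and is itself induced by interferon-gamma, averaged 138 ± 7.36 CPM in double-deficient, 119 ± 20.7 in Foxp3-deficient and 213 ± 26.5 in WT cells. It was lower than WT at -0.63 ± 0.12 in double-deficient (adjusted p = 0.000928) and -0.84 ± 0.12 in Foxp3-deficient cells (adjusted p = 0.000102). Of 13 tested nucleic acid sensors and adaptors, 1 was higher and 3 were lower in double-deficient than Foxp3-deficient cells, where 13.9% of all genes were higher and 13.3% lower. Tlr7, the endosomal sensor of single-stranded RNA, averaged 33.0 ± 4.39 CPM in double-deficient, 16.1 ± 2.17 in Foxp3-deficient and 37.5 ± 3.07 in WT cells, higher in double-deficient than Foxp3-deficient cells by 1.04 ± 0.13 (adjusted p = 0.000118). Tmem173 (STING), the adaptor of the DNA sensor cGAS, averaged 248 ± 33.7 CPM in double-deficient, 256 ± 32.4 in Foxp3-deficient and 381 ± 13.9 in WT cells and was lower than WT in both groups (adjusted p = 0.000359 and 0.00103).

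Further interferon-induced genes that were no members were called in both directions. Of 40 further type I-induced genes tested, 7 were higher and 12 lower in double-deficient than Foxp3-deficient cells, 2 were higher and 4 lower in Foxp3-deficient than in WT cells, and 8 were higher and 15 lower in double-deficient than in WT cells. All genes were called higher and lower in 13.9% and 13.3% of cases in the first of these comparisons, 6.99% and 6.74% in the second and 15.8% and 16.8% in the third, and the same shares apply to the lists that follow. Eif2ak2, the RNA-activated kinase PKR, averaged 13.2 ± 5.47 CPM in double-deficient, 24.7 ± 6.18 in Foxp3-deficient and 40.6 ± 6.14 in WT cells, lower in double-deficient than in WT cells at -1.62 ± 0.26 (adjusted p = 0.000333). Ifi204, a member of the family of DNA-binding p200 proteins, averaged 5.94 ± 1.48 CPM in double-deficient, 19.9 ± 10.3 in Foxp3-deficient and 0.524 ± 0.0703 in WT cells. Of 10 further interferon GTPases tested, 3 were higher and none was lower in double-deficient than Foxp3-deficient cells (Gbp11, Tgtp1 and Tgtp2), and 3 were higher and 3 lower in double-deficient than in WT cells. Tgtp1 averaged 64.3 ± 7.77 CPM in double-deficient, 35.6 ± 2.69 in Foxp3-deficient and 34.3 ± 3.08 in WT cells, with 0.91 ± 0.11 against WT cells (adjusted p = 2.13e-05). Of 15 tested antigen processing and class I genes, 4 were higher and none was lower in double-deficient than Foxp3-deficient cells, while Cd274 (PD-L1) was lower than WT in both groups, at 71.2 ± 1.93 CPM in double-deficient and 71.1 ± 7.47 in Foxp3-deficient against 107 ± 9.04 in WT cells.

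Transcript length moved with the direction of the members in the comparisons of double-deficient cells. Against Foxp3-deficient cells the 11 higher members had exonic lengths of 463 to 5823 bases with a median of 2473, and the 4 lower ones 3781 to 8493 bases. Over all genes with a length, the median log2 fold change of that comparison was 0.25 in the shortest of 5 length classes and -0.22 in the longest, against -0.10 and 0.03 in Foxp3-deficient against WT cells. With each library's trend with length and GC content removed, Bst2 (0.27, adjusted p = 0.109), Gbp2 (0.21, 0.209), Igtp (0.15, 0.309) and Nlrc5 (-0.20, 0.141) were no longer called in double-deficient against Foxp3-deficient cells. The same fit lost Gbp2 in Foxp3-deficient against WT cells (-0.29, adjusted p = 0.102) and Stat2 in double-deficient against WT cells (-0.23, 0.0574). The calls on Gbp2b, Gbp3, Ifi47, Iigp1 and Ifi27l2a in double-deficient against Foxp3-deficient cells were kept there and in all other alternatives, and the sums over their copies were called in the same direction. The lower call on Stat2 in that comparison was likewise kept, with log2 fold changes of -0.54 to -0.32.

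Markers of other cell types were at the following levels. The dendritic cell list, of which 8 of 10 genes were in the table, summed to 71.2 to 130 CPM in double-deficient, 31.1 to 47.0 in Foxp3-deficient and 20.3 to 25.9 in WT libraries, of which Ccr9, also a homing receptor of T cells, made up 62.6 to 117, 21.4 to 39.9 and 9.35 to 13.2 CPM. The defining dendritic cell genes Siglech, Itgax and Flt3 had 5, 12 and 1 reads over all double-deficient libraries, 8, 7 and 7 over Foxp3-deficient and 0 over WT libraries. The 11 myeloid markers summed to 4.21 to 4.82 CPM in double-deficient, 3.19 to 3.64 in Foxp3-deficient and 3.02 to 3.88 in WT libraries, with Cd163 at 0 in double-deficient cells, S100a8, S100a9, Adgre1 and Cd14 in Foxp3-deficient cells, and S100a8, S100a9, Adgre1 and Cd163 in WT cells. The 11 B cell markers summed to 777 to 949, 677 to 844 and 1280 to 1510 CPM, nearly all of it Ighm, with Ms4a1 at 0 in Foxp3-deficient cells. The 5 plasma cell markers summed to 227 to 257 CPM in double-deficient, 178 to 218 in Foxp3-deficient and 244 to 271 in WT libraries, and 3 of 4 tested were higher and none lower in double-deficient than Foxp3-deficient cells. Most of this sum was Xbp1, at 172 to 201 CPM in double-deficient, 159 to 192 in Foxp3-deficient and 200 to 219 in WT libraries. Jchain had 955 reads over double-deficient, 65 over Foxp3-deficient and 98 over WT libraries. In the same order Sdc1 had 179, 77 and 56 reads and Mzb1 had 6, 1 and 2. The 7 markers of NK and CD8 T cells summed to 78.8 to 117 CPM in double-deficient, 45.6 to 154 in Foxp3-deficient and 61.7 to 80.5 in WT libraries. The part of these cells in the differences of the members was not tested.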

How the data were processed

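RNA was amplified with SMART-Seq v4, per the labels' protocols, and the authors deposited 1 table of raw read counts per gene for 12 libraries. Reads were aligned with STAR 2.5.1b and counted with HTSeq on mm10 (GRCm38), per the submitters' processing notes. Neither the annotation release nor the strand setting of the counting is given in the sources used here, so reads of overlapping and antisense genes cannot be told apart. Libraries were grouped by genotype from the labels. The 3 summary rows of the table were left out of library sizes and tests.

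The main test was edgeR 4.0.16 (R 4.3.3), a robust quasi-likelihood fit over all 12 libraries with TMM scaling and the default filter on low counts, adjusted by Benjamini-Hochberg over 13196 genes and called under 0.05. Standard errors came from the fold change and its F statistic, and intervals cover 95%. Every adjusted p printed without another tool's name is from this test or a refit of it. Alternatives were relative log expression scaling, no filter, a filter that asked for a mean of 5 CPM with 1 CPM reached in 4 libraries (the stricter filter), DESeq2 1.42.0, a fit limited to the 2 groups at hand, replicate number fitted as a block, removal of each library's trend with length and GC content (99.1% of tested genes had both), leaving out each library, and summing close copies. Leaving out both Foxp3-deficient libraries that stand apart was chosen after seeing the data. The fitting code was tested on simulated data.

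The members and gene lists were chosen with earlier results of these data known. All 39 members are described, with Foxp3 and Rictor. Of each pathway list up to 3 called genes a direction with the smallest adjusted p could be named, and of a list with none called the gene with the highest mean CPM. Promoter stretches are shown for up to 8 members with a motif match, those with a call first. Intervals of read ratios cover counting error only. Some genes of the pathway and marker lists are not reported here.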

Additional observations from a re-analysis of the deposited data

Results flagged for a closer look

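Of 114 groups of 4 libraries checked for a library far from the other 3, 6 held one, where chance gives about 1 in 20. Ifit1 was at 179.1 CPM in double-deficient replicate 3, against 120.5 to 128.8 CPM in the other 3 libraries of that group. Irgm1 was at 277.9 CPM in the same library, against 209.4 to 220.9 CPM. Ifitm1 was at 5.902 CPM in double-deficient replicate 4, against 0.6308 to 0.7659 CPM. Irf1 was at 662.7 CPM in Foxp3-deficient replicate 3, against 490.4 to 514.9 CPM in its group, and at 565.4 CPM in WT replicate 5, against 601.4 to 606.9 CPM. Iigp1 was at 58.41 CPM in Foxp3-deficient replicate 1, against 79.91 to 84.0 CPM.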

How the results depend on the processing

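Over 22 alternatives, 2264 of 2441 values for the members kept their side of the threshold with no call turned round, 108 lost a call, 65 gained one and 4 reversed. Among values that were not called, 117 changed sign. All 4 reversals came from summing close copies, which replaces a gene by its family: Gbp9 became 0.0 in double-deficient against Foxp3-deficient cells, and Gbp5 and Gbp7 became 0.19 and Gbp8 -0.1 in double-deficient against WT cells. Calls kept in every other alternative that gave a value were 7 of 15 in double-deficient against Foxp3-deficient, 5 of 8 in Foxp3-deficient against WT and 11 of 16 in double-deficient against WT cells. Ifitm1 is counted as kept in both comparisons of double-deficient cells, although it passed the filter on low counts only through that group. It had no value under the stricter filter and DESeq2.

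In double-deficient against Foxp3-deficient cells, 2 type I-like genes were higher in the fit on only the groups compared and 2 with the length and GC trend removed under the replicate block, against 4. That blocked fit had 4 interferon-gamma-like genes higher, against 7, and the replicate block alone had 1 lower, against 3. Over all genes 1205 were higher in the fit on only the groups compared, and 1160 higher and 905 lower in the blocked trend fit, against 1834 and 1751. Leaving out 1 library gave 2 to 7 type I-like genes higher, 0 to 3 interferon-gamma-like genes lower, and 1114 to 2283 genes higher and 1039 to 2147 lower over all genes. Both low ends over all genes came without double-deficient replicate 5 and both high ends without Foxp3-deficient replicate 3.

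In Foxp3-deficient against WT cells, type I-like genes higher numbered 0 under the stricter filter and without both libraries that stand apart, against 1, and 0 to 1 without 1 library. Those lower numbered 1 with relative log expression scaling, with no filter and in the fit on only the groups compared, 5 with DESeq2, the replicate block and the blocked trend fit, and 4 with the trend removed and without both libraries, against 2, and 1 to 4 without 1 library. In double-deficient against WT cells, 2 type I-like genes were higher with no filter, against 4, 1 was lower with the trend removed with and without the block, against 2, and 1377 genes were lower in the blocked trend fit, against 2215. The cause of these shifts was not tested.

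Replicate numbers share no stated source, and same-numbered libraries deviated together only weakly (r of 0.029 to 0.203 in Foxp3-deficient and WT cells, -0.043 to 0.062 in double-deficient and Foxp3-deficient cells, and -0.052 to 0.043 in double-deficient and WT cells), so the block was not used as a pairing. Foxp3-deficient replicates 3 and 5 correlated best with the WT library of the same number (0.102 and 0.203). Foxp3-deficient replicate 1 correlated best with WT replicate 4 (0.188), and Foxp3-deficient replicate 4 with WT replicate 5 (0.084). The labels do not say whether same-numbered Foxp3-deficient and WT cells came from the same mouse, so a pairing of these groups stays possible. Depth limits mainly the 3 Ifitm genes.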
